A study of Mus musculus with 18 samples.

Results

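The connexin genes Gja1, Gjb6, Gjb2, Gjc3, Gjd2 and Gjb5 and the protocadherin gene Pcdh7 are described here over 18 libraries of mouse brain tissue lying around tumours. They were taken as a named list, chosen with earlier results of these data known, and all 7 were found among the 55416 genes of the deposited count table. The study profiled resected peritumoral brain by bulk poly(A)+ RNA-seq in 3 brain metastasis models, 6 brains each, to compare the tissue that surrounds each tumour. The melanoma model carried B16-F10-BrM4 cells (replicates 1 to 6), the lung cancer model 482N1 cells (replicates 7 to 11 and 13) and the breast cancer model EO771-BrM3 cells (replicates 14 to 19). In all 3 groups the labelled genotype was WT, 40000 cells had been injected, and the brain was taken at 10 days. The sources used here did not give host strain, sex, age or the route of injection. Each model rests on 1 tumour cell line, and no tumour-free brain was analysed here, so every difference below is between models and a direction against normal brain cannot be read.

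Connexins are membrane proteins that assemble into hemichannels, and hemichannels of neighbouring cells dock into gap junctions, which pass ions and small molecules between the cells. In brain, Gja1 and Gjb6 encode the main astrocyte connexins and join astrocytes into a network, oligodendrocytes use other members such as Gjc3, and neurons couple electrically through Gjd2. Pcdh7 encodes a non-clustered protocadherin, a cell adhesion molecule, and has been described in brain metastasis as a partner of the Gja1 product in junctions between tumour cells and astrocytes, through which the second messenger cGAMP can reach the STING pathway of the astrocyte.

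The promoters of the 3 connexins known from astrocytes are shown because Gjb2 and Gjb6 lie next to each other on chromosome 14 (order Gja3, Gjb2, Gjb6, Cryl1 in RefSeq) and yet differed in how they varied between models. Gja1 lies on chromosome 10, with no connexin gene among the 3 nearest protein-coding genes on either side. Sequences are from RefSeq on GRCm38.p6, not the GRCm39 build of the study's files, and run from 250 bases before to 50 bases after the annotated start, 5′ to 3′ on the gene's strand. Capitals mark matches on either strand to the motifs searched, which were the palindromic E-box CACGTG, a second E-box form that is spelled CATGTG, the AP-1 site TGANTCA, the GC-rich box known as GGGCGG and the Sox factor motif ACAAAG; no matches overlapped in these windows. Gja1 lies at chr10:56377050-56377349 (plus strand), Gjb2 at chr14:57104653-57104952 (minus strand) and Gjb6 at chr14:57133562-57133861 (minus strand).
Gja1: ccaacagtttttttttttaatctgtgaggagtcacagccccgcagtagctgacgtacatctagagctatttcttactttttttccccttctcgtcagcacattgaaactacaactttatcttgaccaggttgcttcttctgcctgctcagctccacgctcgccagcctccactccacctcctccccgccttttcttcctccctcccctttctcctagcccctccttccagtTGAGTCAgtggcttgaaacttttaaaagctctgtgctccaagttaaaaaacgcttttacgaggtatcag
Gjb2: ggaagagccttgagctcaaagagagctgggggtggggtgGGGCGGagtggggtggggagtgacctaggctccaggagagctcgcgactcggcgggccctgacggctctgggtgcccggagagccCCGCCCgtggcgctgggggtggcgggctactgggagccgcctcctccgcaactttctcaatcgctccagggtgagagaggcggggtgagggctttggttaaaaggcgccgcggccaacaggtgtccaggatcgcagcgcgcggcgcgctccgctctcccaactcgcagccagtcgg
Gjb6: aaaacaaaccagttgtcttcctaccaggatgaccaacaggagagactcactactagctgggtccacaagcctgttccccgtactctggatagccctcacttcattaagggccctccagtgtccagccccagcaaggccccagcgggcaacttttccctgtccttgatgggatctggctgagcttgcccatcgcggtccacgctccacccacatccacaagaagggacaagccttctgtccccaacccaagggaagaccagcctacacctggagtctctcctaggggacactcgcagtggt
In the Gja1 promoter the AP-1 match TGAGTCA began 19 bases before the start, and 7.81% of 32851 mouse promoters of this length held that motif. Upstream of Gjb2 there were 2 GC boxes, a motif held by 35.7% of promoters, and the window held 27 CpG at 70.0% GC. Gjb6 had none of the 5 motifs, with 6 CpG at 57.3% GC, near the medians of all promoters (7 CpG, 52.7% GC). The palindromic E-box was found in 7.15%, the second E-box form in 14.2% and the Sox motif in 18.7% of all promoters and in none of these 3, which says only that those letters are not in these windows.

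Libraries held 7366250 to 14533877 counts, the lowest in breast replicates 18 and 19. A floor of 3 counts in a single library came to 0.206 to 0.407 CPM. Melanoma replicate 3 and breast replicates 18 and 19 were poor in reads of long transcripts: for each doubling of transcript length their log2 CPM fell by 0.273, 0.288 and 0.228, where slopes ran from -0.129 to 0.199 in the other 15. Results that rest on these 3 libraries are given with and without them. Astrocyte, oligodendrocyte and neuron markers were read in every library, apart from Tubb3 at 0 counts throughout, as the labelled tissue, brain, would have. How reads over overlapping genes were counted is not known, so a gene listed at 0 in all 18 libraries may still have had RNA. The 6 melanocyte markers summed to 3650 to 22800 CPM in the melanoma libraries, 1.58 to 4.07 in the lung libraries and 1.35 to 8.27 in the breast libraries, and the 6 epithelial markers to 4.78 to 5.78, 309 to 1320 and 66.2 to 167 CPM, with Cldn4 at 0 in the melanoma and breast models.

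Between models, the melanoma libraries had less Gja1 and more Gjb2 and Gjc3 RNA than either other model, and the breast libraries had more Gjb5 than either other model. Gjb5 was also called lower in melanoma than in lung, but on 2 against 16 reads and with overlapping libraries. Gjb6 and Gjd2 passed no pairwise test, and Pcdh7 came near the threshold in both comparisons with the breast model. By edgeR's quasi-likelihood test with Benjamini-Hochberg adjustment over 17174 genes (called at an adjusted p under 0.05), 4 of 7 members differed between melanoma and lung, where 23.2% of all genes did. Of the 4, 2 were higher and 2 lower in melanoma, against 8.51% and 14.7% of all genes. Melanoma and breast also differed for 4 of 7, against 28.9% of all genes, 2 higher and 2 lower in melanoma, against 9.76% and 19.2%. Without melanoma replicate 3 that background was 4020 genes higher and 4058 lower of 17342 tested, and 6 of 7 members were called, 4 higher and 2 lower. Breast and lung differed for 1 of 7, higher in breast, against 18.3% of all genes in either direction, 11.2% higher and 7.16% lower. A test of any difference among the models called 4 of 7, against 35.8% of all genes. Libraries did not overlap for 3 members between melanoma and lung (14.3% of all genes), for 4 between melanoma and breast (17.1%) and for 1 between breast and lung (14.9%). The 3 comparisons share libraries, so they are not independent of each other. Fold changes below are log2 values, in which a positive sign means higher in the model named first, ± the standard error, and levels are counts scaled to a fixed library size (CPM) on TMM-scaled library sizes, n = 6 brains per model.

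**Figure D1:**
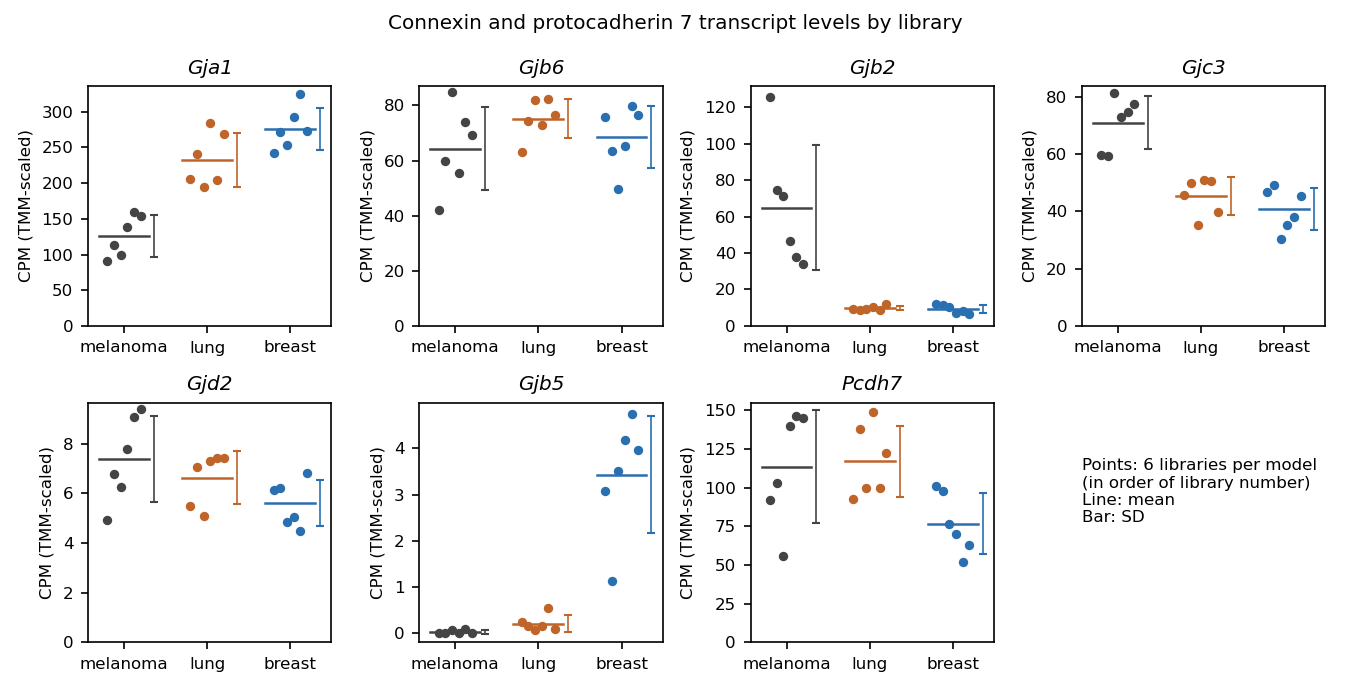
Levels of the 7 genes in each of the 18 libraries, in CPM on TMM-scaled library sizes, with the mean (line) and SD (bar) of 6 libraries per model; the y axis differs between panels. Gja1 was lowest and Gjb2 and Gjc3 were highest in the melanoma model with no overlap, Gjb5 was highest in the breast model, and the ranges of Gjb6 and Gjd2 overlapped in all 3 models.

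Gja1, the most abundant connexin RNA per kilobase of transcript in the lung and breast libraries, was lowest in the melanoma model. Its level ran from 90.95 to 159.8 CPM in the melanoma libraries (median 126.2), from 193.9 to 284.7 in the lung libraries (median 223.2) and from 242.9 to 324.4 in the breast libraries (median 272.0). Every melanoma library was thus below every library of both other models, while lung and breast overlapped. Means were 126.1 ± 29.17 (SD), 232.9 ± 37.71 and 276.2 ± 29.17 CPM. The difference was -0.89 ± 0.15 for melanoma against lung (adjusted p = 0.000134) and -1.13 ± 0.15 for melanoma against breast (adjusted p = 7.03e-06). Between breast and lung it was 0.25 ± 0.15 and missed the threshold (adjusted p = 0.289). In bulk tissue, fewer cells of a type and less RNA per cell cannot be told apart.

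Within the melanoma model, Gja1 measured 90.95, 113.4 and 98.88 CPM in replicates 1 to 3 and 139.1, 159.8 and 154.5 CPM in replicates 4 to 6. The melanocyte marker sum was 14820, 13340 and 22830 CPM in the former and 7047, 4523 and 3651 CPM in the latter, so the 3 libraries lowest in Gja1 were the 3 highest in melanocyte RNA. This order was not particular to Gja1. The astrocyte marker sum was 3051, 3531 and 2491 CPM in replicates 1 to 3 and 4165, 4893 and 4773 CPM in replicates 4 to 6. For neuron markers it was 3518, 3993 and 3090 CPM, then 5474, 5746 and 6220 CPM. The melanoma library highest in Gja1 lay under the lowest lung library, 159.8 against 193.9 CPM. That melanoma library still held 4523 CPM of melanocyte marker RNA. The part of tumour RNA in the difference between models was not tested.

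The 10 astrocyte markers summed to 2490 to 4890 CPM in the melanoma libraries, 3320 to 4740 in the lung libraries and 3410 to 4710 in the breast libraries, and none was at 0. Of them, 3 fell in melanoma against lung and 3 in melanoma against breast, led in both by Aqp4, the water channel of astrocyte endfeet (-0.85 ± 0.21, adjusted p = 0.00534, and -0.83 ± 0.21, adjusted p = 0.00515), and by Mlc1 (-0.40 ± 0.13, adjusted p = 0.0248, and -0.38 ± 0.13, adjusted p = 0.0293). Of all genes, 14.7% were lower in melanoma against lung and 19.2% against breast. Without the 3 libraries poor in long transcripts 3 of 10 markers were lower against lung and 1 of 10 against breast. In that fit 3478 and 3350 of all 17402 genes were lower. Relative to the mean log2 CPM of all 10 markers in the same library, Gja1 was 1.56-fold lower in melanoma than in lung (adjusted p = 0.00649) and 1.94-fold lower than in breast (adjusted p = 0.00649), with no overlap of the libraries in either case. These ratios were compared by a two-sided exact permutation test over all splits of 6 against 6 libraries, where the smallest p possible is 0.00216, with adjustment over 21 such tests. Against lung, the breast libraries were 1.24-fold higher in this ratio, which missed the threshold (exact permutation, adjusted p = 0.0979). Of the 7 reactive astrocyte markers, 6 fell in melanoma against both other models, led by Gfap (-2.53 ± 0.16 against lung, adjusted p = 6.78e-10) and Serpina3n (-3.58 ± 0.23, adjusted p = 9.54e-10), and their sum was 537 to 1290 CPM in the melanoma, 3960 to 6860 in the lung and 3520 to 4650 in the breast libraries. Within the melanoma model the order was the other way: the sum was 1173, 1118 and 1286 CPM in replicates 1 to 3, which were low in Gja1, and 724.6, 628.7 and 537.5 CPM in replicates 4 to 6. Their part in the difference of Gja1 between models was not tested.

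Gjb6, the other main astrocyte connexin, did not follow Gja1. It ranged from 42.13 to 84.93 CPM in the melanoma libraries (median 64.53), from 63.14 to 82.29 in the lung libraries (median 75.42) and from 49.77 to 79.70 in the breast libraries (median 70.60). All 3 ranges overlapped. Differences were -0.23 ± 0.15 for melanoma against lung (adjusted p = 0.334), -0.14 ± 0.15 for breast against lung (adjusted p = 0.594) and -0.09 ± 0.15 for melanoma against breast (adjusted p = 0.678). Against the astrocyte markers the ratio of Gjb6 differed between models by at most 1.07-fold, with adjusted p of 0.996, 0.664 and 0.859 by exact permutation, but without the 3 libraries poor in long transcripts the value for melanoma against lung moved from 0.01 to -0.21 on the log2 scale.

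The balance of the 2 astrocyte connexins was therefore shifted, which a ratio within each library tests directly. Gjb6 relative to Gja1 was 2.07-fold higher in melanoma than in breast, with no overlap (exact permutation, adjusted p = 0.00649). Against lung the melanoma ratio was 1.57-fold higher, with overlap (adjusted p = 0.017, exact permutation). In breast the ratio was 1.32-fold lower than in lung (exact permutation, adjusted p = 0.0455), a call that 10 of the 12 fits without 1 library lost, as did the one without the 3 libraries poor in long transcripts (adjusted p = 0.11). Melanoma replicate 3 had the highest ratio of the 18 libraries, -0.219 on the log2 scale, against -1.32 to -0.919 in the other melanoma libraries.

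**Figure D2:**
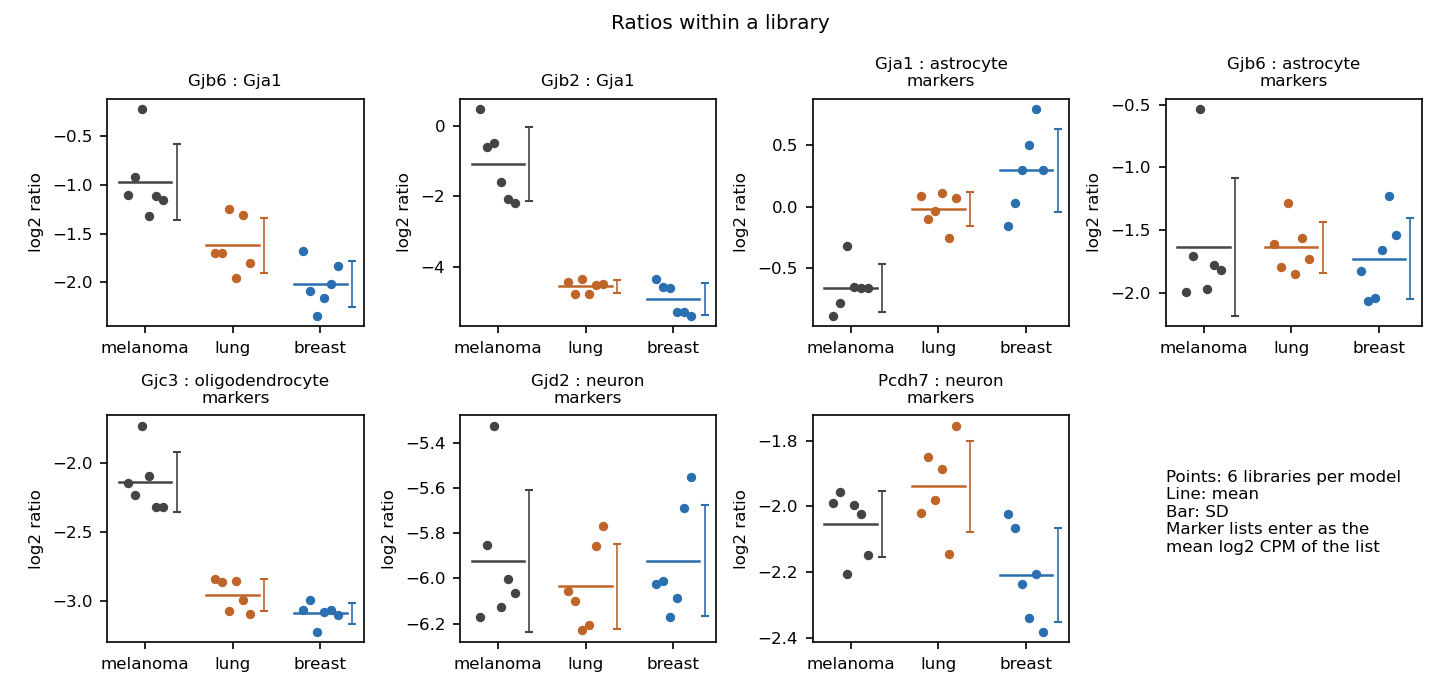
Log2 ratios within each library: 1 gene over another, or a gene over the mean log2 CPM of a marker list, with the mean (line) and SD (bar) of 6 libraries per model. The melanoma libraries lie below the others for Gja1 against astrocyte markers and above them for Gjb2 against Gja1 and Gjc3 against oligodendrocyte markers, while the 3 models overlap for Gjb6 against astrocyte markers and Gjd2 against neuron markers.

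Gjb2, which encodes a connexin of astrocytes, the leptomeninges and many epithelia and is best known for its role in hearing, had the largest rise among the members in the melanoma model. In melanoma replicates 1 to 6 it measured 125.7, 74.69, 71.07, 46.37, 37.92 and 33.76 CPM. The lung libraries ran from 8.792 to 11.77 CPM (median 9.417) and the breast libraries from 6.415 to 11.81 CPM (median 9.251). The lowest melanoma library was thus well above the highest of the others, and the melanoma libraries differed widely among themselves. Means were 64.91 ± 34.25, 9.756 ± 1.127 and 9.229 ± 2.214 CPM (SD). The rise was 2.73 ± 0.27 against lung (adjusted p = 2.95e-07) and 2.81 ± 0.28 against breast (adjusted p = 2.04e-07), while breast and lung differed by -0.07 ± 0.27 (adjusted p = 0.892).

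Melanoma replicates 1 to 3 were the highest in Gjb2 and also in melanocyte RNA, and replicates 4 to 6 the lowest in both, but replicate 1 led in Gjb2 and replicate 3 in the melanocyte sum. Leptomeningeal and fibroblast markers, of cells that also make Gjb2, summed to 780 to 1280 CPM in the melanoma, 533 to 1790 in the lung and 438 to 811 in the breast libraries, with Igf2 at 0 counts in all. Of the 9 tested, 2 rose and 4 fell in melanoma against lung, and 2 rose and 1 fell against breast. Col1a2 (-2.97 ± 0.45, adjusted p = 5.19e-05) and Col1a1 (-3.52 ± 0.63, adjusted p = 0.000266) led against lung, and the rises of Foxc1 (0.79 ± 0.19, adjusted p = 0.00344) and Ptgds (0.81 ± 0.20, adjusted p = 0.00353) led against breast. The 2 that rose against lung were the same, Ptgds (1.02 ± 0.20, adjusted p = 0.000581) and Foxc1 (0.86 ± 0.19, adjusted p = 0.00188). Col1a1 and Col1a2 were not called against breast (0.01 ± 0.59, adjusted p = 0.995, and 0.01 ± 0.43, adjusted p = 0.992). Which cells made the Gjb2 RNA was not tested. Its neighbour Gjb6 passed no test in the same libraries, and its neighbour on the other side, Gja3, a connexin of the eye lens, had 11 reads over the melanoma, 70 over the lung and 9 over the breast libraries.

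Gjc3, a connexin of oligodendrocytes and Schwann cells, rose in the melanoma model. Levels were 59.25 to 81.17 CPM in the melanoma libraries (median 73.88), 35.20 to 50.87 in the lung libraries (median 47.90) and 30.16 to 49.05 in the breast libraries (median 41.68). Again every melanoma library was above every other library. The means were 70.89 ± 9.286, 45.36 ± 6.576 and 40.76 ± 7.40 CPM (SD). Differences were 0.64 ± 0.13 against lung (adjusted p = 0.00119) and 0.80 ± 0.14 against breast (adjusted p = 0.000123), and -0.15 ± 0.13 for breast against lung (adjusted p = 0.496).

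The 8 oligodendrocyte markers did not rise with Gjc3. They summed to 4550 to 6510 CPM in the melanoma, 4590 to 7080 in the lung and 4290 to 7170 in the breast libraries, and the only one called was Cldn11, a myelin claudin, lower in melanoma than in lung (-0.45 ± 0.12, adjusted p = 0.0112) and than in breast (-0.56 ± 0.12, adjusted p = 0.00165). Relative to these markers, Gjc3 was 1.76-fold higher in melanoma than in lung and 1.93-fold higher than in breast, with no overlap (exact permutation, adjusted p = 0.00649 for both). Breast against lung missed the threshold (1.1-fold lower, exact permutation, adjusted p = 0.0979). Oligodendrocyte precursor markers summed to 295 to 408 CPM in the melanoma, 222 to 312 in the lung and 316 to 404 in the breast libraries. Among them Sox10, a transcription factor that melanocytes also make, rose in melanoma (1.97 ± 0.23 against lung, adjusted p = 1.56e-06; 2.06 ± 0.23 against breast, adjusted p = 7.8e-07), and Pdgfra was lower there than in breast (-1.73 ± 0.24, adjusted p = 1.24e-05). Melanoma replicate 3 was highest both in the melanocyte sum and in Gjc3 (81.17 CPM), but replicates 1 and 2, next in melanocyte RNA, were the lowest melanoma libraries in Gjc3 (59.63 and 59.25 CPM, against 73.04 to 77.52 in replicates 4 to 6). The part of tumour RNA in the rise was not tested.

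Gjd2, the connexin of electrical synapses between neurons, was lower per kilobase than the 4 connexins above in each model (2.563, 2.306 and 1.943 CPM per kilobase in melanoma, lung and breast). It measured 4.926 to 9.411 CPM in the melanoma libraries (median 7.295), 5.086 to 7.44 in the lung libraries (median 7.191) and 4.475 to 6.825 in the breast libraries (median 5.595). The ranges overlapped in all 3 models. No difference was called: 0.15 ± 0.17 for melanoma against lung (adjusted p = 0.603), -0.25 ± 0.17 for breast against lung (adjusted p = 0.373) and 0.40 ± 0.17 for melanoma against breast (adjusted p = 0.0909). The last passed the threshold without the 3 libraries poor in long transcripts (0.51, adjusted p = 0.0493) and with DESeq2 (0.43, adjusted p = 0.0381). Both settings also called more of all genes (5955 of 17402 and 5695 of 17174, against 4966 of 17174 in the main fit). Neuron markers summed to 3090 to 6220, 3810 to 5320 and 2480 to 4010 CPM in melanoma, lung and breast, and the ratio of Gjd2 to them differed by at most 1.08-fold (exact permutation, adjusted p = 0.647, 0.511 and 0.996). Gjd2 shares exonic bases with A530058N18Rik on the other strand, which is listed at 0 counts in all libraries.

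Gjb5, a connexin of skin and of the placental trophoblast, was read almost only in the breast model. It measured 1.123 to 4.754 CPM in the breast libraries (median 3.738, mean 3.434 ± 1.269 SD, 217 reads in all). The lung libraries held 16 reads, from 1 to 7 each (0.2085 ± 0.1768 CPM), and the melanoma libraries 2 reads, at most 1 each. Breast libraries did not overlap with the others, while most lung and all melanoma libraries lay under the floor of 3 counts. Breast was higher than lung by 3.97 ± 0.43 (adjusted p = 1.16e-06). For breast over melanoma the ratio was 119 from the reads, with a 95% interval of 32.5 to 987 for counting error only, and the test gave an adjusted p of 6.70e-08 for this comparison. Lung over melanoma was 7.51 (interval 1.77 to 67.3), and the adjusted p of 0.0395 was lost in 6 of 18 fits without 1 library, those without melanoma replicates 1, 2, 4 or 6 or lung replicates 7 or 11.

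Epithelial markers did not have the same order of models as Gjb5: their sum was highest in the lung libraries (309 to 1320 CPM), lower in the breast libraries where Gjb5 was highest (66.2 to 167 CPM), and lowest in melanoma (4.78 to 5.78 CPM). Which cells made the Gjb5 RNA was not tested.

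Pcdh7 averaged 113.6 ± 36.42 CPM (SD) in the melanoma, 116.8 ± 23.14 in the lung and 76.68 ± 19.53 in the breast libraries, and no difference passed the test. It measured 55.71 to 145.9 CPM in the melanoma libraries (median 121.5), 92.55 to 149.0 in the lung libraries (median 111.1) and 51.74 to 100.9 in the breast libraries (median 73.37). All 3 ranges overlapped. Differences were -0.04 ± 0.22 for melanoma against lung (adjusted p = 0.926), -0.61 ± 0.22 for breast against lung (adjusted p = 0.0623) and 0.56 ± 0.22 for melanoma against breast (adjusted p = 0.0607). The lowest melanoma library was replicate 3 (55.71 CPM) and the lowest 2 breast libraries were replicates 18 and 19 (51.74 and 62.65 CPM), the 3 libraries poor in long transcripts, and the longest Pcdh7 transcript, at 8785 bases, is the longest of the 7 members.

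Without those 3 libraries Pcdh7 passed the threshold in both comparisons with breast: -0.50 against lung (adjusted p = 0.0483) and 0.60 for melanoma against breast (adjusted p = 0.0178). More of all genes were called there too. Between breast and lung it was 4357 of 17402, against 3149 of 17174 with all libraries. Between melanoma and breast it was 5955 of 17402, against 4966 of 17174. In the same fit 5 of 7 neuron markers were called higher in melanoma than in breast, against 1 of 7 with all libraries and 3 of 7 with DESeq2. Relative to the neuron markers it was 1.2-fold lower in breast than in lung (exact permutation, adjusted p = 0.0253), but not called without the 3 libraries (exact permutation, adjusted p = 0.10). The other 2 ratios missed the threshold (exact permutation, adjusted p = 0.191 and 0.0979). Pcdh7 shares exonic bases with 4932441J04Rik on the other strand, which had 409 reads over the melanoma, 401 over the lung and 327 over the breast libraries. As the strand setting of the counting was not given, reads of the pair cannot be told apart.

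**Figure D3:**
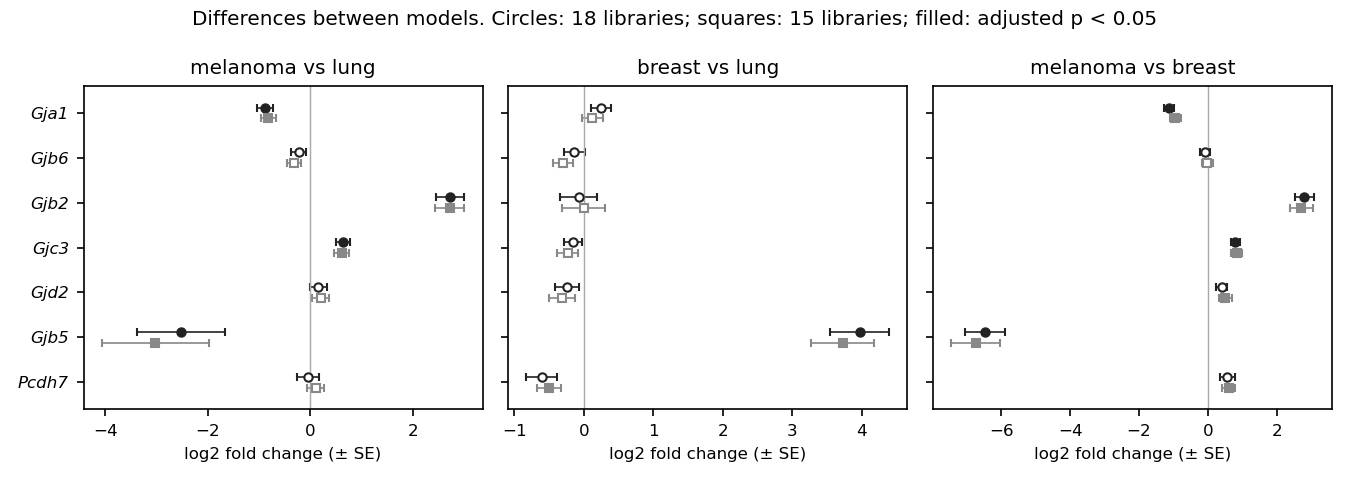
Log2 fold changes with standard errors for the 7 genes in the 3 comparisons, from all 18 libraries (circles) and without the 3 libraries poor in long transcripts (squares), filled where the adjusted p was under 0.05; the x axis differs between panels. Gja1, Gjb2, Gjc3 and Gjb5 kept their calls, and Pcdh7 and Gjd2 gained calls without the 3 libraries.

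Counted per kilobase of transcript, so that connexins can be compared with each other, the 20 connexin genes with a transcript length summed to 152 ± 6.04 CPM per kilobase (SD) in the melanoma, 178 ± 11 in the lung and 171 ± 14.4 in the breast libraries. Gja1 made up 26.1% ± 5.52 (SD) of that sum in melanoma, 40.9% ± 4.3 in lung and 50.9% ± 3.81 in breast. Gjb2 took 18% ± 9.89 in melanoma, from 8.91% to 35.6%, and 2.27% and 2.28% in lung and breast. Gjb6 held 20.1%, 20.1% and 19%, and Gjc3 11.7%, 6.36% and 5.97%. The largest single share was Gjb2 in melanoma replicate 1 (35.6%) and Gjb6 in melanoma replicate 3 (26.5%, against 20.4% for Gja1), and Gja1 in the other 16 libraries. Lengths are those of the longest annotated transcript, so the shares depend on that choice of isoform.

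**Figure D4:**
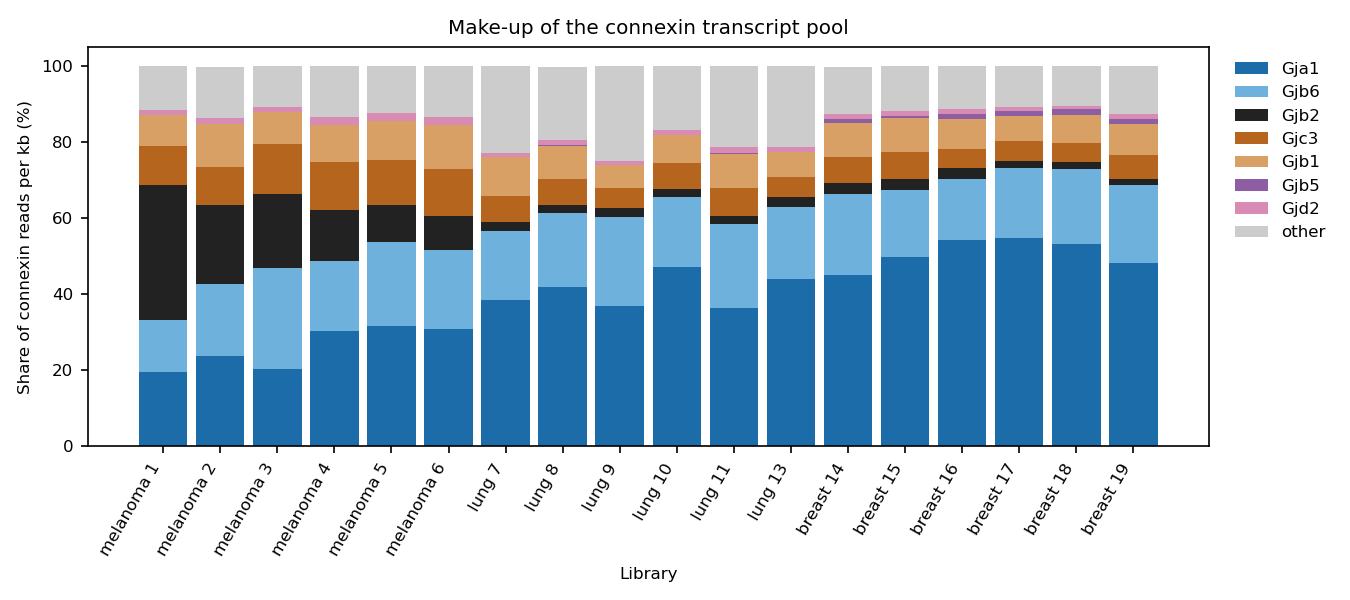
Share of each connexin in the summed connexin reads per kilobase (%), for each library by model and replicate number; genes without a colour of their own are summed as other. The Gja1 share is smallest and the Gjb2 share largest in the melanoma libraries, and Gjb5 is visible in the breast libraries.

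Gjb1, another oligodendrocyte connexin, was within 0.16 log2 units in each comparison and not called (adjusted p = 0.754 between melanoma and lung, 0.787 between breast and lung, and 0.438 between melanoma and breast), unlike Gjc3. Pannexins form single-membrane channels, and of 3 genes Panx1 and Panx2 were tested and neither was called by edgeR or DESeq2, with none at an unadjusted p under 0.05. Panx3 was read 63 times over the lung libraries and once over the melanoma libraries, a ratio of 59.1 (interval 10.2 to 2370), and it was at least 18-fold higher in lung than in breast, where it had no reads.

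Of 11 other non-clustered protocadherins, edgeR called 1: Pcdh12, an endothelial and trophoblast protocadherin, rose in breast against lung (3.07 ± 0.24, adjusted p = 2.18e-08) and was lower in melanoma than in breast (-2.63 ± 0.24, adjusted p = 7.76e-08). Of the 11, 9 had a fitted value in breast below lung and 10 one in melanoma above breast, as Pcdh7 had, none of these called by edgeR. Pcdh12 was the only one of opposite sign to Pcdh7 in both. In melanoma against lung all 11 were above 0 and none was called, while Pcdh7 was at -0.04. Their medians were -0.088 for breast against lung, 0.304 for melanoma against breast and 0.205 for melanoma against lung. Over all genes these were -0.021, 0.035 and 0.022, and the signs of all genes were not counted. Between melanoma and breast DESeq2 called 2 higher and 1 lower, and edgeR without the 3 libraries poor in long transcripts 1 and 1.

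Connexin partners and regulators, 18 genes for scaffolds, kinases and trafficking proteins, gave 0 higher and 4 lower in melanoma against lung, 0 and 5 in breast against lung, and 2 and 3 in melanoma against breast. These are to be read against the shares of all genes given above for each direction, of which 14.7% and 7.16% fell in the first pair of comparisons. Without the 3 libraries poor in long transcripts the counts were 2 and 4, 0 and 5, and 4 and 2, and with DESeq2 size factors 0 and 2, 1 and 5, and 3 and 3. Their median log2 fold changes were -0.077, -0.158 and 0.122, against 0.022, -0.021 and 0.035 over all genes. Cav1, the caveolar scaffold that binds the Gja1 product, was lower in melanoma than in lung (-2.19 ± 0.26, adjusted p = 2.04e-06) and than in breast (-2.72 ± 0.26, adjusted p = 1.52e-07). Mapk3, a kinase that phosphorylates the Gja1 product, was lower in breast than in lung (-0.37 ± 0.08, adjusted p = 0.00321), and Ezr, a membrane-to-actin linker, was lower in melanoma than in breast (-0.66 ± 0.13, adjusted p = 0.000688).

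Of the cGAMP-STING pathway, 12 genes of 14 were tested. In melanoma 6 of 12 fell and none rose against lung, where 14.7% of all genes fell, and 7 of 12 fell and none rose against breast, where 19.2% did. Neither Cgas (0.91 ± 0.34, adjusted p = 0.0654) nor Sting1 (-0.41 ± 0.37, adjusted p = 0.507) was called in melanoma against lung. The same held against breast, with Cgas at -0.42 ± 0.34 (adjusted p = 0.359) and Sting1 at -0.94 ± 0.37 (adjusted p = 0.0628). Tbk1, Ikbke and Irf3 were not called against lung either, but Tbk1 was lower against breast (-0.37 ± 0.08, adjusted p = 0.00247). DESeq2 called 7 lower and 1 higher against lung, and 2530 lower and 2104 higher of all 17174 genes. In breast against lung 5 rose and none fell, where 11.2% of all genes rose. Without the 3 libraries poor in long transcripts 3 rose, as did 2040 of all 17402 genes. The median log2 fold changes were -0.82 for melanoma against lung, -1.003 for melanoma against breast and 0.481 for breast against lung. Enpp1, which hydrolyses cGAMP outside the cell, fell in melanoma against lung (-1.47 ± 0.23, adjusted p = 5.83e-05), as did the NF-kB subunit gene Nfkb1 (-0.96 ± 0.16, adjusted p = 0.000177). Against breast, Nfkb1 (-1.81 ± 0.17, adjusted p = 1e-07) and the subunit gene Rela (-1.65 ± 0.16, adjusted p = 1.8e-07) led. Breast was higher than lung in Rela (0.97 ± 0.16, adjusted p = 0.000151) and Nfkb1 (0.85 ± 0.16, adjusted p = 0.000854). Cgas (1.33 ± 0.35, adjusted p = 0.00984) and Tbk1 (0.32 ± 0.08, adjusted p = 0.0115) were also called higher in breast than in lung. Sting1 was not called there (0.53 ± 0.36, adjusted p = 0.365). Of the 6 microglia markers all fell in melanoma against lung and 5 against breast, but none was called in breast against lung by edgeR or DESeq2 (1 at an unadjusted p under 0.05, median -0.226), with sums of 282 to 419, 840 to 1270 and 824 to 1200 CPM in melanoma, lung and breast. Whether they bear on the pathway's genes was not tested.

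The genes nearest in pattern to each member were found over the 18 libraries by the root mean square difference of mean-centred log2 CPM among 16320 candidates. For Gja1 the nearest was Scara3 (0.126), with Ell2 (0.176) and Csgalnact1 (0.189) next, where Gja1 itself varied by 0.547 around its mean. Gjb2 (own variation 1.308) was nearest to Mreg (0.28), a melanosome transport gene, then Eya1 (0.298) and Sema3b (0.301). The nearest to Gjb5 (own variation 1.848) were Prss50 (0.473), Plac9a (0.499) and Gm32219 (0.579), each far higher in breast, with Plac9a at 52.4 CPM there and 3.01 and 5.07 CPM in melanoma and lung. Gjb6, whose own variation was only 0.263, lay nearest to Htra1 (0.134), Fam107a (0.135) and Rps4l (0.143). Gjc3 (own variation 0.407) lay nearest to Glrb (0.165), a glycine receptor subunit gene, Bdh1 (0.193) and Olfml1 (0.203). Gjd2 (own variation 0.296) lay nearest to Calb1 (0.095), a neuronal calcium-binding protein gene, 4933431E20Rik (0.113) and Nxph1 (0.114). Pcdh7 (own variation 0.466) lay nearest to Sema3e (0.107), Cdh2 (0.13), which encodes N-cadherin, and Susd4 (0.13). These are descriptions of likeness over libraries that share models and depth.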

How the data were processed

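RNA was sequenced from the resected peritumoral area of 18 mouse brains, from 1 µg of total RNA each, as poly(A)+ directional libraries (NEBNext Ultra II), per the labels' protocols. The design text names 6 brains per model, so replicates are separate animals. The submitters' processing notes name bcl2fastq for demultiplexing and GRCm39 as the genome. Which aligner, counter, annotation and strand option made the table is not given in the sources used here. Values in the main deposited table are raw counts for each gene, whole numbers that the authors left unnormalized. The deposited CPM table holds the authors' CPM for 16925 genes, and 100% of its values came out as whole reads (tolerance 0.01). For the 7 members these reads equalled the counts in every library. Symbols and transcript lengths were taken from GENCODE M21 (52083 of 55416 genes, 99.8% of reads).

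The count model was edgeR's robust quasi-likelihood fit (edgeR 4.0.16, limma 3.58.1, R 4.3.3) to all 18 libraries with 1 coefficient for each model, on the 17174 genes that filterByExpr kept and with TMM scaling. Calls were made at a Benjamini-Hochberg adjusted p under 0.05 over all genes tested. Ratios within a library used log2 CPM with a prior count of 2. No 2 libraries of a model agreed within sampling noise (smallest chi-square per degree of freedom 2.82). The members and lists were chosen with earlier results of these data known. Named genes are all members, the 2 called genes with the smallest adjusted p per other list and comparison (for marker lists only those set beside a member), called other connexins, and the 3 nearest in pattern, and some genes that this rule names are not reported here. Gja3, Gjb1, Panx1, Panx2, Panx3, the genes that overlap members, and Pdgfra beside Gjc3 were added after their values were seen or for their position. Cgas, Sting1, Tbk1, Ikbke and Irf3 were also added after their values were seen. The same holds for Foxc1 and Ptgds against lung and for Col1a1 and Col1a2 against breast. Alternatives were other scalings, filters, tests (DESeq2 1.42.0, limma), the recovered reads, fits of 12 libraries, and libraries left out. The fit was tested on simulated data.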

Additional observations from a re-analysis of the deposited data

Results flagged for a closer look

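In 3 of 42 groups of 6 libraries, each 1 quantity in 1 model, a single library stood far from the other 5 by Dixon's test at the 95% level, which chance flags in about 1 in 20 groups. Gjb5 in lung replicate 11 was at 0.548 CPM, against 0.0678 to 0.232 CPM in the other lung libraries. The log2 ratio of Gjb6 to Gja1 in melanoma replicate 3 was -0.219, against -1.32 to -0.919 in the other melanoma libraries. In the same library the log2 ratio of Gjb6 to the astrocyte markers was -0.536, against -1.99 to -1.71. Melanoma replicate 3 is also 1 of the 3 libraries poor in reads of long transcripts and the one with the highest melanocyte marker sum, 22830 CPM. Whether either bears on its ratios was not tested.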

How the results depend on the processing

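Of 1153 values under alternative settings, 1062 were scored as unchanged, and the cause of the other changes was not tested. For fold changes and ratios, unchanged means the same direction and the same side of the threshold. Counts of genes or members called were scored by their size alone and loosely. In melanoma against breast, 6 members called by DESeq2 against 4 in the main fit were scored as unchanged. The differences of Gja1, Gjb2 and Gjc3 between melanoma and both other models kept their calls under all alternatives run, as did those of Gjb5 in breast. Gjb5 in melanoma against lung was not called by limma on log2(CPM + 1) (-0.22) and could not be fitted with 12 libraries, where it was filtered out. Pcdh7 in melanoma against lung turned to 0.01 without a filter and to 0.10 without the 3 libraries poor in long transcripts. In breast against lung Pcdh7 was called with DESeq2 size factors (-0.61), DESeq2 (-0.61), the recovered reads (-0.65), 12 libraries (-0.65), without the 3 libraries (-0.50) and, unadjusted, by exact permutation (-0.62, p = 0.01515), so that 2 members were called there in the first 5 of these. In melanoma against breast it was called with DESeq2 size factors (0.60), no filter (0.61), DESeq2 (0.60), the recovered reads (0.61) and without the 3 libraries (0.60), and Gjd2 with DESeq2 (0.43) and without the 3 libraries (0.51). Gja1 in breast against lung passed an unadjusted exact permutation (0.25, p = 0.04978), and Gjb2 there turned to 0.00 without the 3 libraries. Log2 ratios moved without the 3 libraries for Gjb6 to Gja1 (breast against lung, -0.45, not called), Gjb6 to astrocyte markers (melanoma against lung, -0.21), Pcdh7 to neuron markers (breast against lung, -0.23, not called) and Gjd2 to neuron markers, which was -0.01 between melanoma and lung, -0.04 between breast and lung, and 0.03 between melanoma and breast (there also 0.00 with a prior count of 0.5).

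With single libraries left out, values that changed a call or a sign, and counts scored as changed, ranged as follows. In melanoma against lung Gjb5 ran from -3.03 to -1.97, Pcdh7 from -0.12 to 0.10, the ratio of Gjb6 to astrocyte markers from -0.21 to 0.08 and that of Gjd2 to neuron markers from -0.01 to 0.17. In breast against lung Pcdh7 ran from -0.70 to -0.53 (called without melanoma replicates 3, 5 or 6, lung replicate 11 or breast replicates 14 or 15), the members called from 1 to 2, and the ratios of Gjb6 to Gja1 from -0.47 to -0.33, Gja1 to astrocyte markers from 0.21 to 0.40 and Pcdh7 to neuron markers from -0.31 to -0.23. In melanoma against breast Gjb6 ran from -0.17 to 0.02, Gjd2 from 0.36 to 0.52, Pcdh7 from 0.53 to 0.76 (called without melanoma replicate 3, lung replicate 11 or breast replicates 14 or 15), the genes called from 4520 to 8078 (the latter without melanoma replicate 3), and the ratios of Gjb6 to astrocyte markers from -0.12 to 0.19, Gjd2 to neuron markers from -0.12 to 0.07 and Pcdh7 to neuron markers from 0.12 to 0.19. No paired analysis was possible because the models share no replicate number in the labels. Depth limits Gjb5 most, with 2 reads over the melanoma and 16 over the lung libraries.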
